A study of Drosophila melanogaster with 15 samples.

Results

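The Sox family of Drosophila comprises 8 genes, Sox102F, Sox14, D (Dichaete), Sox21a, Sox21b, SoxN (SoxNeuro), Sox15 and Sox100B, and every row that named one of them was taken from the 6 lists deposited with a chromatin immunoprecipitation sequencing (ChIP-seq) series on memory maintenance. These lists named 7766 genes in all. Of the 8 Sox genes, 6 were named in at least 1 list, with 43 rows between them, and SoxN and Sox100B were named in none. The family was selected on a measured value, the listed fold of H4K16 acetylation, of which Sox102F carried the largest, so that fold is given below as a description and was not tested.

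Sox proteins bind DNA through a high-mobility-group (HMG) box, which lies in the minor groove and bends the helix. Members fall into lettered groups by the sequence of this box, and most work with partner factors. In the fly, the group B genes D and SoxN act in the embryonic nervous system, whereas Sox14 acts downstream of the steroid hormone ecdysone when neurons prune their dendrites.

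Chromatin came from nuclei of the mushroom body (MB), the brain structure that holds olfactory memory, in flies whose strain is labelled CS10 and written w(CS10) in the methods. A FLAG-tagged KASH domain, which sits in the nuclear envelope, was expressed from the MBp-LexA driver in all groups and served to pull down the nuclei from homogenized heads, so that each library pooled many flies and the kinds of MB neuron could not be told apart. The groups were spaced-trained flies, taken 1 day after repeated pairing of an odour with electric shocks separated by rest, and naive flies. Acetylated lysine 9 of histone H3 (H3K9Ac) was profiled in 3 spaced-trained and 3 naive libraries, and acetylated lysine 16 of histone H4 (H4K16Ac) in 3 spaced-trained and 3 naive libraries. The transcription factor CREB and its coactivator CRTC had 1 spaced-trained library each, and 1 input library came from naive flies. The age of the flies was not given in the sources used here.

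The lists hold called sites and regions, not values per library, so no values per library or sequencing depth can be given for any Sox gene, and the only error is the SD that the authors list beside a fold. Each acetylation peak table goes through the genome 3 times, in blocks without a sample name. These blocks are called run 1, 2 and 3 in table order, and they were not assigned to a library or to a training group. Among 12 MB marker genes, 10 had an acetylation peak, against 3 of 6 glial, 2 of 6 photoreceptor, 0 of 5 muscle and 0 of 4 fat body markers. By mark, 8 of the 12 MB markers had H3K9Ac peaks and 8 had H4K16Ac peaks, against 34.9% and 40.5% of all protein-coding genes. Of the 6 glial markers, 2 had H3K9Ac peaks and 2 had H4K16Ac peaks. For the 6 photoreceptor markers these counts were 1 and 2. The share of all genes with a peak of either mark was not computed, here or for the gene lists below. The MB markers prt and ab were named by no acetylation peak, nor was the glial gene repo.

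CREB sites were spread over most of the family, whereas acetylation peaks were named for Sox102F and Sox14 alone. A CREB site was listed for 6 of the 8 genes, with 1 site each, while a CREB site was listed for 17.3% of all 13962 protein-coding genes. A CRTC site was listed for 3 of the 8 genes (Sox102F, Sox14 and D), with 7 sites in all, against 11.4% of all genes. These same 3 genes held a shared CREB/CRTC site, for which a CRTC site had to lie 200 bp or less from a CREB site, with 5 such sites in all, against 9.55% of all genes. H3K9Ac peaks named 2 of the 8 genes, with 17 rows, and 34.9% of all genes. H4K16Ac peaks named the same 2 genes, with 11 rows, and 40.5% of all genes. No test was run on these counts, because the members were chosen with results known.

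**Figure D1:**
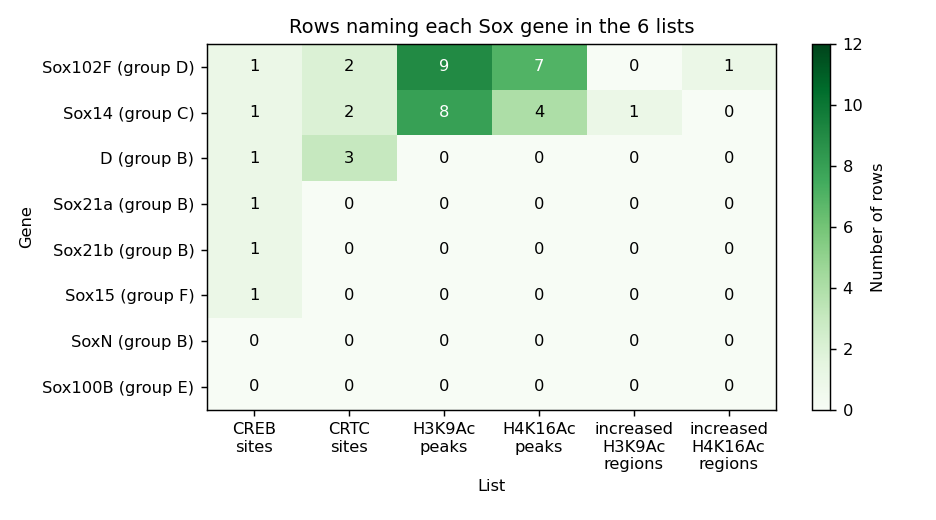
Number of rows naming each Sox gene (vertical axis, with the Sox group in brackets) in each of the 6 lists (horizontal axis); colour and printed number both give the count. Sox102F and Sox14 each appear in 5 lists and hold all 17 H3K9Ac and 11 H4K16Ac peaks, D, Sox21a, Sox21b and Sox15 appear only as CREB or CRTC sites, and SoxN and Sox100B have no row.

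Sox102F, the only group D gene of the fly and a relative of vertebrate Sox5 and Sox6, had 20 rows, the most of the family. It lies on chromosome 4, and its listed distances placed it on the minus strand. All positions are those of the dm3 genome build. The site and region lists measured from a transcription start site (TSS) at 855019, whereas the peak tables measured from a start at 854639 (transcript NM_001014695), 380 bp away, so distances from the 2 kinds of list are not interchangeable for this gene.

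The Sox102F CREB site ran from 855066 to 855111, at -47 bp from the TSS, where negative distances are upstream. Its enrichment factor, the ratio of ChIP to background read density given by the authors' ERD peak caller, was 4.07, and 21.5% of all CREB sites were at or below this value. A CRTC site from 855053 to 855126 covered the whole CREB site. It had an enrichment factor of 2.67, with 6.43% of all CRTC sites at or below, and a false discovery rate (FDR) of 0.0056. The Sox102F promoter site was therefore shared by both factors and low in both lists. A second CRTC site lay 26366 bp away in the gene body, from 828624 to 828687, and was listed at -651 bp from an inner start at 827973. Its enrichment factor was 3.97 (34.8% of CRTC sites at or below), and its nearest CREB site was the promoter site, 26379 bp away.

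The listed H4K16Ac region at Sox102F ran from 855042 to 855442, just upstream of the TSS (-23 bp). Its fold in the authors' deposited table was 2.09 ± 0.39 (listed SD), spaced-trained over naive. This was the highest of the 1428 regions in that list, whose next value was 2.00 and whose lowest was 1.2. That list holds more regions than the paper reports as increased, so the rank applies to the deposited list alone. The listed SD of 0.39 is wider than the gap between 2.09 and 2.00, so the first rank is not resolved within that error. The region contained all 45 bp of the CREB site and all 73 bp of the promoter CRTC site. The peak on which the region was centred was not among the strong ones: its PICS score (the authors' peak score, with no fixed range) was 1.80, against a median of 1.91 over all listed H4K16Ac regions. Sox102F was not in the list of increased H3K9Ac regions. Because values per library were not analysed here, the fold was not retested, and the level of H4K16Ac in spaced-trained and naive flies cannot be given separately.

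H4K16Ac peaks at Sox102F formed 3 loci once each peak was set to a 400 bp window and overlapping windows were joined. The promoter locus, from 855042 to 855449, was called in run 1 with a score of 1.69 and in run 2 with a score of 1.80, and it was the one that held the shared site. Run 3 had no peak there. It had instead a peak with a score of 1.91 in a window from 856183 to 856583, 1057 bp from the shared site. The third locus, from 828858 to 829499, lay in an intron and was called in all 3 runs. Its 4 peaks had scores of 0.889 in run 1, 1.36 and 1.04 in run 2 and 1.10 in run 3. The intronic peaks were therefore the most repeatable by position and the weakest by score, with 4.15% to 21.8% of the H4K16Ac table at or below them.

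H3K9Ac occupied different windows at the same promoter. Of the 9 H3K9Ac rows for Sox102F, 6 were annotated as 5′UTR or upstream and 3 as intron. The locus closest to the peak-table start at 854639 ran from 854551 to 855019 and had 1 peak in each run. Scores were 1.79 in run 1, 2.49 in run 2 and 1.47 in run 3. This locus held peaks upstream of that start, yet it lay downstream of the start at 855019 that the site and region lists used. It ended 23 bp short of the increased H4K16Ac region and 34 bp from the shared site. A second locus, from 853702 to 854471, covered the 5′UTR and first intron and was also called in all 3 runs, with scores of 0.539 and 2.33 in run 1, 2.04 in run 2 and 2.52 in run 3. The third, from 828630 to 829265, was called in run 3 only (scores of 2.02 and 0.414), overlapped the intronic H4K16Ac locus and 57 of the 63 bp of the gene-body CRTC site. Thus the shared promoter site lay inside H4K16Ac windows and beside H3K9Ac windows. The CRTC site without CREB crossed the edge of an H3K9Ac window and lay 171 bp from an H4K16Ac window. These H3K9Ac distances rest on the set windows: H3K9Ac peaks were listed at 4 to 200 bp, and H4K16Ac peaks at 400 or 401 bp. By listed limits, the H3K9Ac peak nearest the gene-body CRTC site ran from 828824 to 828836, outside the site. That nearest the shared site ran from 854777 to 854861.

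**Figure D2:**
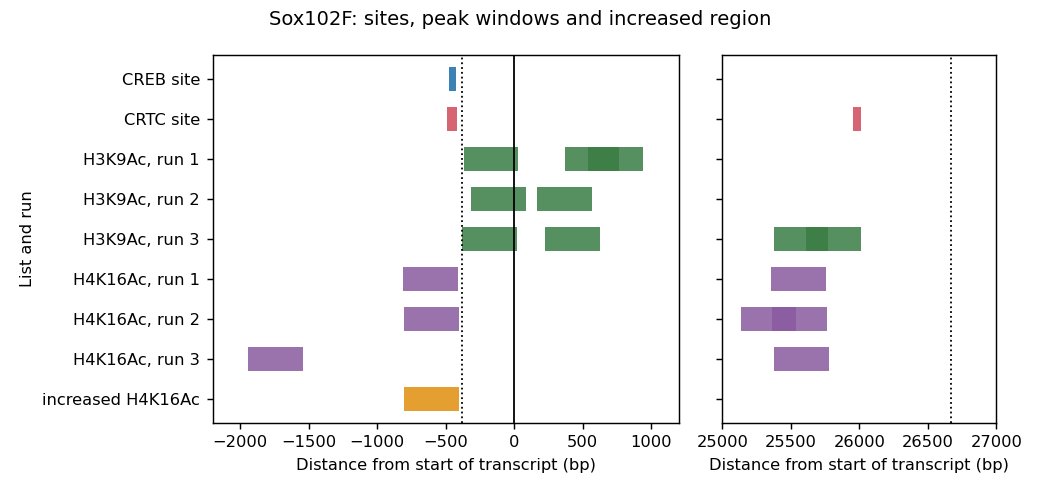
Positions at Sox102F as distance in bp along the transcript from the start used by the peak tables (solid line), shown in 2 panels on 1 scale, with dotted lines at the starts used by the site and region lists; bars are listed sites, 400 bp windows around peaks of each run, and the increased region, and sites narrower than the drawing width are widened to stay visible. The shared CREB/CRTC site falls inside the increased H4K16Ac region and inside the H4K16Ac windows of runs 1 and 2, and just outside the H3K9Ac windows of all 3 runs.

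Chromosome 4 as a whole had 30 of the 4803 CREB sites, 14 of the 3002 CRTC sites and 9 of the 2390 shared sites. It had 541 of the 23378 H3K9Ac peaks and 198 of the 24152 H4K16Ac peaks. Of the increased regions, 29 of 1889 in H3K9Ac and 19 of 1428 in H4K16Ac lay there, the latter at 17 genes. Besides Sox102F, 3 genes of this chromosome were in all of the CREB, CRTC and increased H4K16Ac lists: CG32000, Pur-alpha and unc-13, the last of which encodes a protein that primes synaptic vesicles. Each had 1 shared site, as Sox102F did. Pur-alpha and unc-13 were in the increased H3K9Ac list as well, and CG32000, like Sox102F, was not. Of the neighbours of Sox102F in the RefSeq gene order, MED26, a Mediator subunit, had peaks of both marks and was in both increased lists with no CREB or CRTC site. The other neighbour, the forkhead gene fd102C, was in none of the lists. The increased H4K16Ac region of MED26 lay 46802 bp from that of Sox102F.

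Sox14, the group C gene, had 16 rows and resembled Sox102F in having sites of both factors, peaks of both marks and an increased region, but the increased mark was H3K9Ac. It lies on chromosome arm 2R on the plus strand, and the peak tables (19866744) and the other lists (19866743) implied the same start within 1 bp. The CREB site, from 19866208 to 19866224, was at -519 bp from the TSS and had an enrichment factor of 8.79, with 73.9% of CREB sites at or below. A CRTC site from 19866252 to 19866264 lay 28 bp from it, at -479 bp. The other CRTC site, from 19865894 to 19865950, was at -793 bp and 258 bp from the CREB site, beyond the limit for a shared site. Both CRTC sites carried the same enrichment factor, 3.96 (34.5% of CRTC sites at or below). Of the 652 genes with at least 2 CRTC sites, 163 had a single value for all of them.

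The increased H3K9Ac region of Sox14 ran from 19866214 to 19866614 (-129 bp from the TSS). Its listed fold, spaced-trained over naive, was 1.27 ± 0.11 (listed SD) in the authors' deposited table. This value was shared by 76 regions and ranked 1121 of 1889, so it was an ordinary member of that list. The region contained 10 of the 16 bp of the CREB site and all 12 bp of the nearer CRTC site. Its centring peak had a score of 1.42, against a median of 1.99 over all listed H3K9Ac regions. An H4K16Ac window overlapped it by 368 bp, and no region in the increased H4K16Ac list was named for Sox14. The neighbouring gene upstream, PPP1R15 (listed as Gadd34), did have increased H4K16Ac regions, of which the nearer, from 19865136 to 19865536, lay 678 bp from the increased H3K9Ac region of Sox14 and 358 bp from its farther CRTC site. The regions named for Sox102F and Sox14 were thus of different marks, each over a shared site, with an increased region of the other mark close by at Sox14. That PPP1R15 region overlapped neither Sox14 CRTC site.

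H3K9Ac at Sox14 formed 1 broad promoter locus, from 19865848 to 19867128, that was called in all 3 runs and held 7 of the 8 peaks. The peak farthest upstream was the most repeatable, with scores of 2.31 at -692 bp in run 1, 2.71 at -696 bp in run 2 and 2.42 at -692 bp in run 3, so its position was nearly the same in each run. Peaks nearer to the start were seen in run 1 (-142 bp, score of 2.22) and in run 2 (-330 bp with 1.42, -30 bp with 2.21 and 184 bp with 1.63). The last peak, at 676 bp in the 5′UTR, was in run 3 only, with a score of 1.03. The centring peak of the increased region was the one at -330 bp, which was called in run 2 alone. Both neighbours of Sox14 in gene order, PPP1R15 and Phm, had peaks of both marks and no site of either factor, and Phm was in neither increased list.

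H4K16Ac at Sox14 differed between the runs. Run 2 had 2 promoter peaks, at -298 bp with a score of 1.40 and at 52 bp with a score of 2.27, and runs 1 and 3 had none there. Runs 1 and 3 each had a weak intronic peak, at 2050 bp with a score of 0.896 and at 2040 bp with a score of 0.892, close to the bottom of the H4K16Ac table (4.41% and 4.30% of peaks at or below). All 3 runs also had an H4K16Ac window named for PPP1R15 that came within 52 to 60 bp of the farther Sox14 CRTC site. The promoter H4K16Ac locus named for Sox14 therefore rested on 1 run, whereas that of Sox102F rested on 2.

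**Figure D3:**
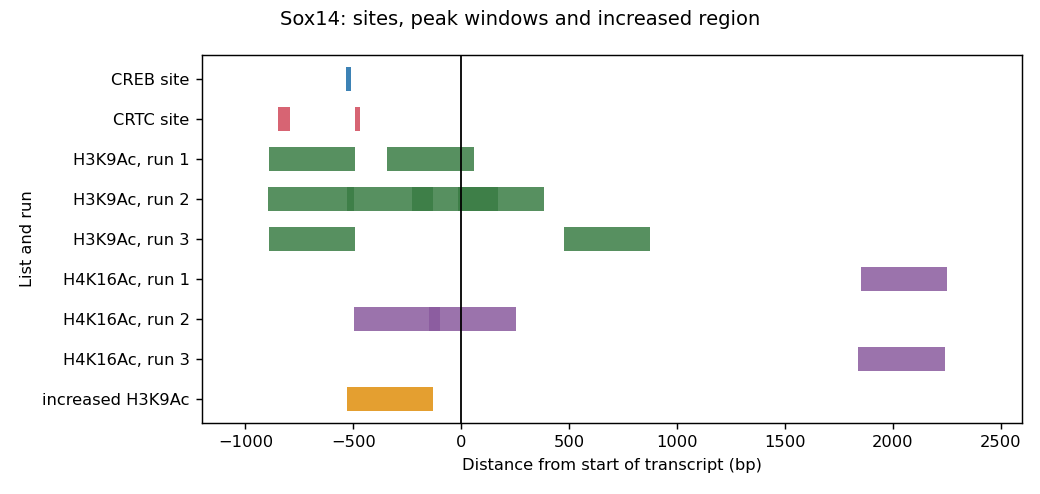
Positions at Sox14 as distance in bp along the transcript from the start used by the peak tables (solid line); bars are as in the map of Sox102F. The shared site lies at the left edge of the increased H3K9Ac region. H3K9Ac windows of all 3 runs lie upstream of the start, and only those of runs 1 and 2 also cover the start. H4K16Ac windows lie at the promoter in run 2 and in the intron in runs 1 and 3.

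Peak scores of both genes ranged from the bottom of their tables to somewhat above the middle, with 0.308% of the H3K9Ac table at or below the weakest Sox102F peak. The median H3K9Ac score was 2.02 for Sox102F (n = 9) and 2.21 for Sox14 (n = 8), against 2.13 over all 23378 H3K9Ac peaks. The median H4K16Ac score was 1.36 for Sox102F (n = 7) and 1.15 for Sox14 (n = 4), against 1.91 over all 24152 H4K16Ac peaks. The strongest Sox peak of each gene and mark had 51.1% to 67.9% of its table at or below. Of the family's H3K9Ac rows, 14 of 17 were annotated as upstream or 5′UTR alone, against 33.2% of all H3K9Ac peaks. Of its H4K16Ac rows, 5 of 11 were, against 33.2% of all H4K16Ac peaks. In both marks 3 of 5 Sox loci were called in at least 2 runs, while this held for 75.5% of all H3K9Ac loci and 67.2% of all H4K16Ac loci. A shared CREB/CRTC site lay within 200 bp of 2 of 5 Sox H3K9Ac loci and 2 of 5 Sox H4K16Ac loci, against 15.6% and 12.9% of all loci of these marks.

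Sox21a, Sox21b and D are group B genes that lie in a row on chromosome arm 3L, and all 3 had CREB sites in a stretch without any acetylation peak. D, which patterns the embryo and the ventral nerve cord, had a CREB site from 14170701 to 14170777 at -64 bp from its TSS, with an enrichment factor of 5.08 (36.3% of CREB sites at or below). It had 3 CRTC sites, the most of the family, and at least 3 sites were listed for 304 of the 1671 genes with any CRTC site. They ran from 14170625 to 14170631 (5 bp from the TSS), from 14170732 to 14170774 (-95 bp) and from 14170942 to 14170966 (-305 bp). The middle one overlapped the CREB site and the others lay 70 bp and 165 bp from it, so all 3 counted as shared. They carried 1 common enrichment factor of 3.58 (24.6% of CRTC sites at or below).

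Sox21b had a CREB site from 14124568 to 14124628, at -144 bp from its TSS and with the lowest CREB enrichment factor of the family, 3.82 (17.6% at or below). Sox21a, which acts in the differentiation of intestinal stem cells, had a CREB site from 14104709 to 14104719, at -3491 bp, the farthest from a TSS. Its enrichment factor was the highest of the family, 11.44 (87.0% at or below). Neither had a CRTC site: the nearest one lay 45997 bp from the Sox21b site and 65906 bp from the Sox21a site. Within this gene row, the highest and the lowest CREB values thus belonged to the genes without a CRTC site.

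The stretch without an H3K9Ac or H4K16Ac window ran from 14065306 to 14183972, over 118.7 kb between windows named for l(3)70Da and nuf. Among all 8869 such stretches it ranked 163 by length, with 98.2% at or below it and a median length of 2447 bp. It contained 4 CREB sites, of which 3 were those of the Sox genes and 1 was named for nuf, and 3 CRTC sites, all named for D. From the D CREB site the nearest H3K9Ac window was 13195 bp away and the nearest H4K16Ac window 23037 bp. From the Sox21a site these distances were 39403 and 39426 bp, and from the Sox21b site 59262 and 59285 bp.

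**Figure D4:**
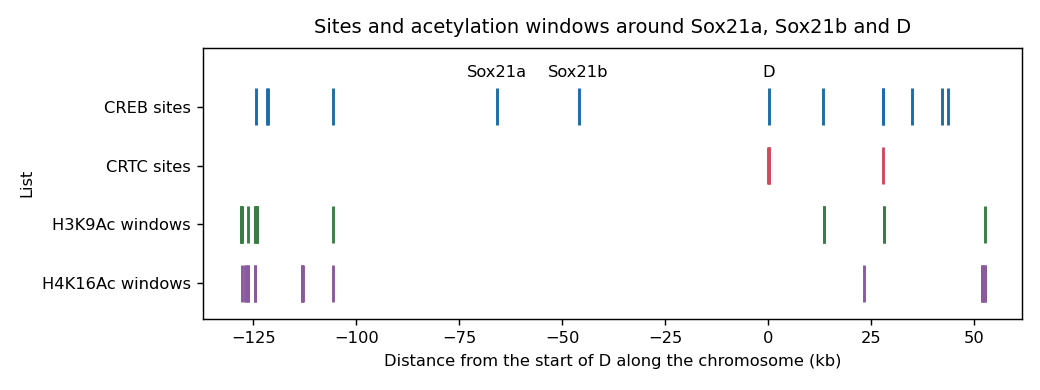
CREB sites, CRTC sites and 400 bp acetylation windows around Sox21a, Sox21b and D on chromosome arm 3L, by distance in kb from the start of D; each tick is 1 site or window, and ticks are drawn wider than the sites. The sites of the 3 Sox genes fall in a 118.7 kb stretch that holds no H3K9Ac or H4K16Ac window.

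Sox15, the group F gene, which acts in sense organ development and in the wing hinge, had 1 CREB site on 2R from 10099906 to 10099916, which touched its TSS (0 bp). The enrichment factor was 7.53 (63.8% at or below), and the nearest CRTC site was 27054 bp away. The site lay 2768 bp from an H3K9Ac window and 3803 bp from an H4K16Ac window, in a window-free stretch of 13485 bp. Its neighbours in gene order, the vesicular GABA transporter gene VGAT and the ribosomal protein gene RpS23, both had peaks of both marks.

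SoxN, a group B gene of neural progenitors, and Sox100B, a group E gene that acts in the testis, were named by no row. SoxN lies between CG42710 and CG32986, which were in none of the lists either. Sox100B lies between CG11317, in none, and dco, a casein kinase gene with a CRTC site, peaks of both marks and an increased H4K16Ac region. An unlisted gene is one that no row names, which does not mean that no site or peak lies in it. A row names 1 gene at most, 300 H3K9Ac and 519 H4K16Ac peaks name none, and all increased regions have a listed fold of at least 1.2 and lie within 500 bp of a TSS.

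Over the family, the enrichment factors of the 6 CREB sites were 3.82 to 11.44 with a median of 6.3, against a median of 6.17 over all 4803 CREB sites. The 7 CRTC sites had values of 2.67 to 3.97 with a median of 3.58, against 4.67 over all 3002 CRTC sites. All Sox CRTC sites were therefore below the median of their list, although D with 3 sites and Sox14 with 2 contributed 1 value each. A CRTC site lay within 200 bp of 3 of 6 Sox CREB sites and 52.3% of all CREB sites. A CREB site lay within 200 bp of 5 of 7 Sox CRTC sites and 79.6% of all CRTC sites.

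**Figure D5:**
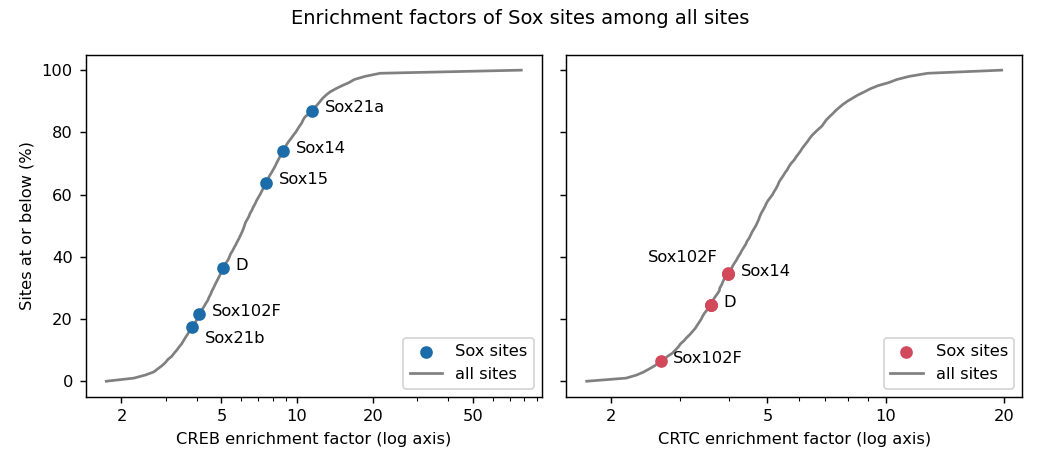
Enrichment factor (horizontal log axis) of the Sox CREB sites (left) and CRTC sites (right) on the curve of all sites of the list, with the percentage of sites at or below each value on the vertical axis; 1 point can stand for several sites with the same value. CREB values of the Sox genes spread between 17.6% and 87.0% of the list, while the CRTC values all lie at or below 34.8%.

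By distance to acetylation, the Sox CREB sites of Sox102F and Sox14 were near, those of Sox21a, Sox21b and D were far, and that of Sox15 lay between. An H3K9Ac window lay within 200 bp of 2 of 6 Sox CREB sites and an H4K16Ac window within 200 bp of 2 of 6, against 43.5% and 44.1% of all CREB sites. For the CRTC sites these counts were 4 of 7 and 4 of 7, against 44.7% and 46.3% of all CRTC sites. Windows of both marks lay within 200 bp of 2 of 6 Sox CREB sites (Sox102F and Sox14) and 32.9% of all CREB sites, and of 4 of 7 Sox CRTC sites and 34% of all CRTC sites. No window of either mark lay within 10000 bp of 3 of 6 Sox CREB sites, against 13.8% of all CREB sites, or of 3 of 7 Sox CRTC sites, against 13.4% of all CRTC sites. These far sites are the neighbours Sox21a, Sox21b and D, which share 1 stretch and are not independent. By gene, 4 of the 6 Sox genes with a CREB site had no acetylation peak named for them, while this was so for 38% of the 2536 genes in the CREB list. It was so for 1 of the 3 Sox genes with a CRTC site (D) and 35.2% of the 1671 genes in the CRTC list.

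An increased region was listed for 1 of the 8 Sox genes in H3K9Ac, against 12.2% of all genes, and for 1 of 8 in H4K16Ac, against 9.15% of all genes. By site, 1 of 6 Sox CREB sites lay within 200 bp of an increased H3K9Ac region and 1 of 6 within 200 bp of an increased H4K16Ac region, against 9.97% and 9.56% of all CREB sites. For the CRTC sites the counts were 1 of 7 and 1 of 7, against 8.96% and 10.1% of all CRTC sites. A shared site lay within 200 bp of both Sox regions, against 10.5% of all increased H3K9Ac regions and 15.5% of all increased H4K16Ac regions. Each increased list was made of 2 sorted blocks. In H3K9Ac the first block had 409 rows, of which 408 were at genes with a shared CREB/CRTC site, and the second had 1480 rows, of which 0 were. In H4K16Ac the first block had 392 rows, of which 390 were at such genes, and the second had 1036, of which 0 were. The Sox14 row stood in the first block of the H3K9Ac list and the Sox102F row in that of the H4K16Ac list.

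Of 11 other genes with an HMG box, 5 had a CREB site, 4 a CRTC site, 8 H3K9Ac peaks and 9 H4K16Ac peaks. Over all protein-coding genes these shares were 17.3%, 11.4%, 34.9% and 40.5%. Of the 11 genes, 6 were in the increased H4K16Ac list, against 9.15% of all genes: HmgD, HmgZ, Dsp1, pan, cic and bbx. HmgD and HmgZ encode abundant chromatin proteins, Dsp1 a corepressor, pan the TCF factor of Wnt signalling and cic a repressor controlled by receptor tyrosine kinases. Among them cic had the most shared sites, with 4 of its 4 CRTC sites near a CREB site. Pan and bbx were in the increased H3K9Ac list too, and pan, which like Sox102F lies on chromosome 4, had 1 CREB site and no CRTC site.

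Of 19 genes that are Sox partners or neural targets, 8 had a CREB site, 8 a CRTC site and 7 a shared site. Over all protein-coding genes these shares were 17.3%, 11.4% and 9.55%. Of the 19 genes, 5 had H3K9Ac peaks and 4 H4K16Ac peaks, against 34.9% and 40.5% of all genes, and 5 had a peak of either mark. The genes named here were chosen by their highest CRTC enrichment factor, so these values are not compared with those of the Sox sites. The neural differentiation gene pros, the axon guidance gene comm and the POU factor gene pdm2 had 7.96, 7.68 and 7.43. They were followed by elav, nub and gro with 6.43, 5.62 and 4.72. Lower in the list, vvl had 4.25 and Dr 2.73. Each of these values is the highest over a gene's sites, so none is set against the median over all CRTC sites. The POU factor genes nub and pdm2, together with pros, had shared sites and no acetylation peak, as D did. The genes comm, elav and gro had peaks of both marks and were in the increased H4K16Ac list, and comm and gro were in the increased H3K9Ac list as well.

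Of 6 genes tied to Sox14 in neurite pruning, 6 had H3K9Ac peaks and 5 had H4K16Ac peaks, beside 34.9% and 40.5% of all protein-coding genes. A CREB site was listed for 4 of the 6 genes and a CRTC site for 1, against 17.3% and 11.4% of all genes. The gene with CRTC sites was the ecdysone receptor gene EcR, which had 12 CREB sites and 9 CRTC sites, all of the 9 shared. These were in the increased H3K9Ac list, as Sox14 was: EcR, its partner usp and the cytoskeletal enzyme gene Mical, a target of Sox14 in pruning neurons. Thus 3 of the 6 genes were in the increased H3K9Ac list and 0 of the 6 in the increased H4K16Ac list. Over all protein-coding genes these shares were 12.2% and 9.15%. Usp and Mical had no CRTC site. Of 6 genes tied to Sox21a in gut stem cells, 4 had a CREB site, 4 a CRTC site and 3 a shared site. Over all protein-coding genes these shares were 17.3%, 11.4% and 9.55%. Of these 6 genes, 3 had H3K9Ac peaks and 3 H4K16Ac peaks, against 34.9% and 40.5% of all genes, and 4 had a peak of either mark. Delta (Dl) had a top CRTC enrichment factor of 14.69, and Egfr and esg had 2 and 3 shared sites. The Snail-type factor gene esg, like Sox21a, had no acetylation peak, whereas the signal transducer gene Stat92E had peaks of both marks and 2 increased regions of each.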

How the data were processed

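The authors' methods state that reads were mapped to dm3 (LifeScope for histone marks, CLC Genomics Workbench for CREB and CRTC), that reads of mapping quality below 8 were removed, and that peaks were called over input DNA with PICS and ERD. These methods describe replicated CREB and CRTC libraries, deposited separately, whereas the labels here give 1 library of each, so their calling rule may not hold for these site lists. The authors deposited the FDR of each call (a q-value type of measure), the ERD enrichment factor (a ratio), the PICS score of each peak and, for increased regions, a linear fold with SD and a p-value headed t-test. The fold and p-value columns are the authors' own comparison: the fold is given for Sox rows as a description, and the p-value was not used. The methods name DESeq2 for changed windows, which the t-test column does not match. With 1889 H3K9Ac and 1428 H4K16Ac regions, the deposited increased lists are also larger than the sets of increased regions in the paper. The CRTC list, with 3002 sites, is shorter than the set in the paper. These lists are therefore not the sets that the paper reports, and they are described as deposited. Values per library were not analysed here, and the lists carry no depth. Reads per library, given in the study's supplement, are not used here. Whether the replicates came from separate groups of flies was not given in the labels, and the methods call them biological replicates.

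Rows were matched by gene symbol, with Python 3.11.15 and pandas 2.3.3. Peaks were set to 400 bp windows around their centres, and overlapping windows of a mark were joined into loci. Features within 200 bp counted as near or shared. Percentiles are shares of a list at or below a value. Of 7766 gene names, 7627 matched RefSeq (Release 6), which gave the 13962 protein-coding genes and the gene order. Its coordinates were not used. Interval functions were checked on simulated data. Named genes were all members, and from each gene list at most 6 with a shared site or increased region, by highest CRTC enrichment factor or by order in the list. Beyond this rule, vvl and Dr are named as the remaining partner or target genes with a CRTC site. The members, gene lists and alternatives were chosen with earlier results of these data known. Sequences are not printed here.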

Additional observations from a re-analysis of the deposited data

How the results depend on the processing

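Of 16 alternatives over 8 counts, 8 stayed within 1.5 times the reported count and 8 did not. With only sites at or above the median enrichment factor of their list, 3 of the 6 Sox CREB sites and 0 of the 7 CRTC sites were counted. With direct overlap in place of a 200 bp gap, 2 of the 5 shared sites were counted. With only loci called in at least 2 runs, 3 of 5 H3K9Ac loci and 3 of 5 H4K16Ac loci were counted, and with only loci whose top score reached the table median, 3 and 2. With H3K9Ac peaks at their listed limits and no window, 12 separate H3K9Ac loci were counted, since those peaks are narrow. For H4K16Ac this alternative gave 5 loci as before and is among the 8 within 1.5 times. It could not change that count, because H4K16Ac peaks are already listed at 400 or 401 bp. Counts of increased regions and of loci near a shared site stayed within these limits under the alternatives run. No paired analysis was possible because the lists carry no values per replicate, and no replicate could be left out for the same reason. Counts from CREB and CRTC rest on 1 listed library each, runs of the peak tables have no sample name, and no increase of a Sox region was retested.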
